A study of Homo sapiens with 4 samples.

Results

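The collagen genes were taken as the rows whose symbol consists of COL, a type number, the letter A and a chain number, which gave 44 of the 26364 genes in the count tables. They were grouped as 11 fibrillar genes, 6 basement membrane genes (COL4), 10 FACIT genes (fibril-associated collagens with interrupted triple helices) and 17 others. The line was NTERA2, a human embryonal carcinoma, and its mRNA was sequenced in 2 groups of 2 libraries. The labels give 1 group as BEND3 LacZ (replicates 1 and 3) and the other as BEND3 sh60 (replicates 1 and 2). All 4 libraries came from the same line, clone CRL-1973, which the labels describe as a lung carcinoma of embryonic stem cell origin. BEND3 is a chromatin-bound repressor with BEN domains. The labels do not say what sh60 and LacZ are, and they are read here as a hairpin directed at BEND3 and its control. The labels name no harvest time and do not say whether replicates were separate cultures, so p-values here reflect the spread among these samples alone, and that spread may be technical.

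Collagens are secreted proteins whose alpha chains wind around each other into a long helix, and each gene encodes 1 kind of chain. Fibrillar collagens pack into the tensile fibers of connective tissue, collagen IV forms the sheet-like network of basement membranes, and FACIT collagens sit on the surface of fibrils. Before a chain leaves the cell its prolines and lysines are hydroxylated and it is folded with dedicated chaperones, and outside the cell it is trimmed and crosslinked. Early embryonic cells are known for laying down basement membrane.

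Levels are given as CPM, counts scaled to library size, always for the LacZ libraries first (replicate 1, then 3) and then for the sh60 libraries (replicate 1, then 2). Library totals lay between 30338285 and 44788461 counts, and 1 count was worth 0.0221 to 0.0333 CPM. Differences are log2 fold changes of sh60 over LacZ from edgeR's quasi-likelihood test, with Benjamini-Hochberg adjustment across the 16040 tested genes and a threshold of 0.05. BEND3 itself measured 68.8, 79.3, 55.7 and 52.0 CPM. Both sh60 libraries were below both LacZ libraries (log2 fold change -0.46, edgeR adjusted p = 0.00168), and without LacZ replicate 3 it did not pass (adjusted p = 0.153). Markers of embryonal carcinoma were abundant in every library, with POU5F1, the gene of the pluripotency factor OCT4, at 934, 955, 910 and 1016 CPM. The LacZ libraries differed from each other in the collagen genes. LacZ replicate 1 was above LacZ replicate 3 in 35 of 42 tested collagen genes (83.3%), against 49.3% of all tested genes.

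Collagen mRNA was higher in sh60 for 15 of the 42 tested genes and lower for 5, while 22 did not pass. The 15 were led by the chains of collagen I (COL1A1 and COL1A2), by the fibril-surface collagen COL12A1, by COL11A1 and by COL4A2, each more than 1 higher on the log2 scale. The 5 lower genes were the transmembrane collagen COL13A1, COL9A2, the collagen VI chains COL6A1 and COL6A2, and COL26A1. Over all genes tested 28.8% passed, 15.8% as higher and 13.0% as lower, and among the collagen genes 47.6% passed, 35.7% as higher and 11.9% as lower. The share lower was thus near that of all genes, and the share higher was above it. The collagen genes were chosen with earlier results of these data known. The median log2 fold change was 0.26 over the tested collagen genes and -0.0042 over all genes. RNA was taken from whole cultures, so more cells that make a collagen and more mRNA per cell cannot be told apart.

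By levels alone, both sh60 libraries lay above both LacZ libraries in 24 of the 42 tested collagen genes (32.1% of all tested genes did so) and below both in 7 (32.3% of all), and the groups overlapped in 11. A passing change of at least 1 in size on the log2 scale was found in 5 collagen genes, all higher, and in 5.83% of all genes. None of the collagen genes fell by that much, and the nearest was COL13A1 at -0.99. All 15 higher collagen genes and all 5 lower ones had LacZ replicate 1 above LacZ replicate 3, whereas 75.5% of all higher and 33.8% of all lower genes did. For the higher genes LacZ replicate 1 was thus the LacZ library nearer to sh60, and for the lower genes it was the farther one. Leaving out LacZ replicate 1 gave a median log2 fold change of 0.39 over the tested collagen genes, against -0.0027 over all tested genes. Without LacZ replicate 3 these medians were 0.16 and 0.0028. Each of these fits held a single LacZ library.

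**Figure D1:**
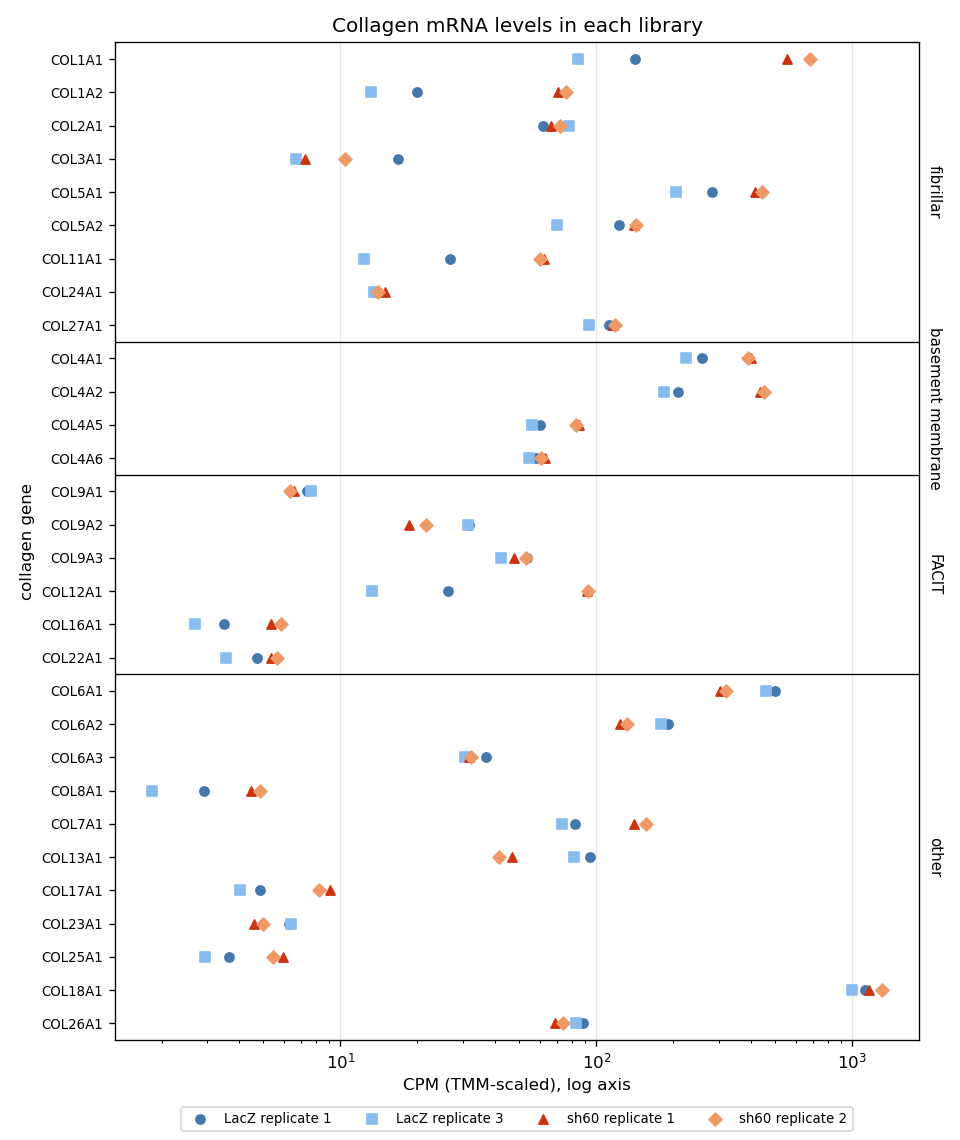
CPM of each collagen gene that passed the test or averaged 5 CPM or more in a group, on a log axis, with 1 marker per library and the genes ordered by class. COL1A1, COL1A2, COL11A1 and COL12A1 have both sh60 libraries far to the right of both LacZ libraries, COL13A1 has them to the left, and COL18A1 lies highest with all 4 libraries between 996 and 1310 CPM.

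The filter on low counts kept 42 of the 44 genes. COL10A1, the collagen of hypertrophic cartilage, had 1 count in LacZ replicate 1 and 0 in the other libraries. The other untested gene, COL19A1, had 2, 1, 10 and 2 counts. A count of 0 allows up to 3 counts, which is 0.0663 to 0.0998 CPM in these libraries.

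The order of abundance can be read only per exon length, as CPM per kilobase (RPKM). COL18A1, which encodes the basement membrane collagen that releases endostatin, was the most abundant collagen mRNA in all 4 libraries, at 164.5, 146.4, 171.4 and 192.7 RPKM. COL6A1 came next in LacZ (118.2 and 109.2 RPKM), then COL6A2 (43.8 and 41.0 RPKM). COL4A1, COL4A2, COL5A1, COL13A1 and COL26A1 followed between 24.0 and 34.7 RPKM, and each overlapped at least 1 neighbor in this range. In sh60 the order differed below COL18A1. COL1A1 was second at 93.4 and 115.4 RPKM, up from 23.9 and 14.3, and COL6A1 (71.7 and 76.1 RPKM) overlapped COL4A2 (69.6 and 72.1 RPKM). COL11A2 is left out of this order, because the tables list it on 7 sequences, alternative haplotypes included, and its summed exon length is then no gene length.

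Among the fibrillar collagens, 5 of 11 tested genes were higher in sh60 and 0 were lower (over all genes 15.8% and 13.0%). Their median log2 fold change was 0.33. The edgeR test gave 0 lower genes at an unadjusted p under 0.05 too, and so did DESeq2 and limma-voom at their adjusted thresholds. With no filter on low counts 1 fibrillar gene, COL3A1, passed as lower. With LacZ replicate 3 left out its log2 fold change was -0.92, in a fit with a single LacZ library. Together the 11 genes summed to 804, 582, 1453 and 1628 CPM, a ratio of sh60 to LacZ of 2.22. An exact permutation test of such a sum, with 2 libraries against 2, cannot give a two-sided p below 0.333, and that value was found.

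COL1A1 and COL1A2 encode the 2 chains of collagen I, the main collagen of bone, skin and tendon. COL1A1 (chromosome 17, 48261457 to 48279000, minus strand, hg19) measured 141.4, 84.9, 553.7 and 684.0 CPM. Both sh60 libraries were far above both LacZ libraries, a 5.46-fold difference (log2 fold change 2.45, SE 0.16, edgeR adjusted p = 1.06e-08). COL1A2 (chromosome 7, 94023873 to 94060544, plus strand, hg19) measured 19.9, 13.2, 70.6 and 76.2 CPM. It was higher by 4.39-fold (log2 fold change 2.13, SE 0.14, edgeR adjusted p = 1.06e-08), again with no overlap. LacZ replicate 1 was the higher LacZ library for both chains. With that library left out or LacZ replicate 3 left out, both chains still passed.

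Collagen I is mostly assembled from COL1A1 and COL1A2 chains in unequal numbers. Per exon length the mRNA of COL1A1 exceeded that of COL1A2 by 6.47, 5.87, 7.16 and 8.20 times in the 4 libraries. The ratio was thus higher in both sh60 libraries than in both LacZ libraries.

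COL5A1, COL5A2 and COL11A1 encode chains of collagens V and XI, the minor fibrillar collagens that start fibrils and set their diameter. COL11A1 measured 26.9, 12.4, 62.2 and 60.4 CPM. The sh60 libraries were close to each other and above both LacZ libraries, which differed by more than 2 times (log2 fold change 1.62, SE 0.20, edgeR adjusted p = 9.50e-06). With edgeR's robust option COL11A1 did not pass (adjusted p = 0.0841). COL5A1 measured 283.4, 204.4, 414.7 and 441.9 CPM, with both sh60 libraries higher (log2 fold change 0.81, SE 0.11, edgeR adjusted p = 2.75e-05). COL5A2 measured 122.2, 70.0, 140.2 and 142.6 CPM and passed at a log2 fold change of 0.55 (SE 0.16, edgeR adjusted p = 0.0127). LacZ replicate 1 lay near the sh60 libraries here. With LacZ replicate 3 left out the log2 fold change of COL5A2 was 0.21 (adjusted p = 0.467), and DESeq2 (adjusted p = 0.340) and the robust option (adjusted p = 0.271) did not call it.

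The other 6 fibrillar genes did not pass. COL2A1, the main collagen of cartilage, measured 61.9, 77.8, 66.5 and 72.1 CPM. Its sh60 libraries lay between the LacZ libraries, and the log2 fold change was -0.01 with a 95% confidence interval of -0.23 to 0.22 (edgeR adjusted p = 0.964). COL3A1, the partner of collagen I in skin, vessels and hollow organs, measured 16.8, 6.69, 7.25 and 10.4 CPM. LacZ replicate 1 held the most COL3A1 and LacZ replicate 3 the least, so the sh60 libraries lay inside the LacZ range (log2 fold change -0.43, edgeR adjusted p = 0.247). With no filter on low counts COL3A1 passed as lower at nearly the same size (log2 fold change -0.43, edgeR adjusted p = 0.0100). Its direction turned with the LacZ library used. Leaving out LacZ replicate 3 gave a log2 fold change of -0.92, and leaving out LacZ replicate 1 gave 0.41. Each of these fits had a single LacZ library and so held no spread among LacZ libraries. COL27A1, a fibrillar collagen of developing cartilage, measured 111.7, 93.5, 116.1 and 118.1 CPM (log2 fold change 0.19, edgeR adjusted p = 0.146). It passed as higher with GC and length trends removed (adjusted p = 0.0372) and without sh60 replicate 1 (adjusted p = 0.0493). COL24A1, with 13.6, 13.5, 14.9 and 14.1 CPM, and the low COL5A3 and COL11A2 had log2 fold changes of 0.10, 0.30 and 0.33. The counts of COL11A2, which is listed on 7 sequences, are uncertain, because reads that map to several places were left out.

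COL3A1 and COL5A2 lie tail to tail on chromosome 2 with 19168 bases between them (hg19). COL5A2 was higher in sh60 and COL3A1 did not pass. The mRNA of COL3A1 relative to COL5A2, per length, was 0.174 and 0.121 in LacZ and 0.0653 and 0.0919 in sh60.

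**Figure D2:**
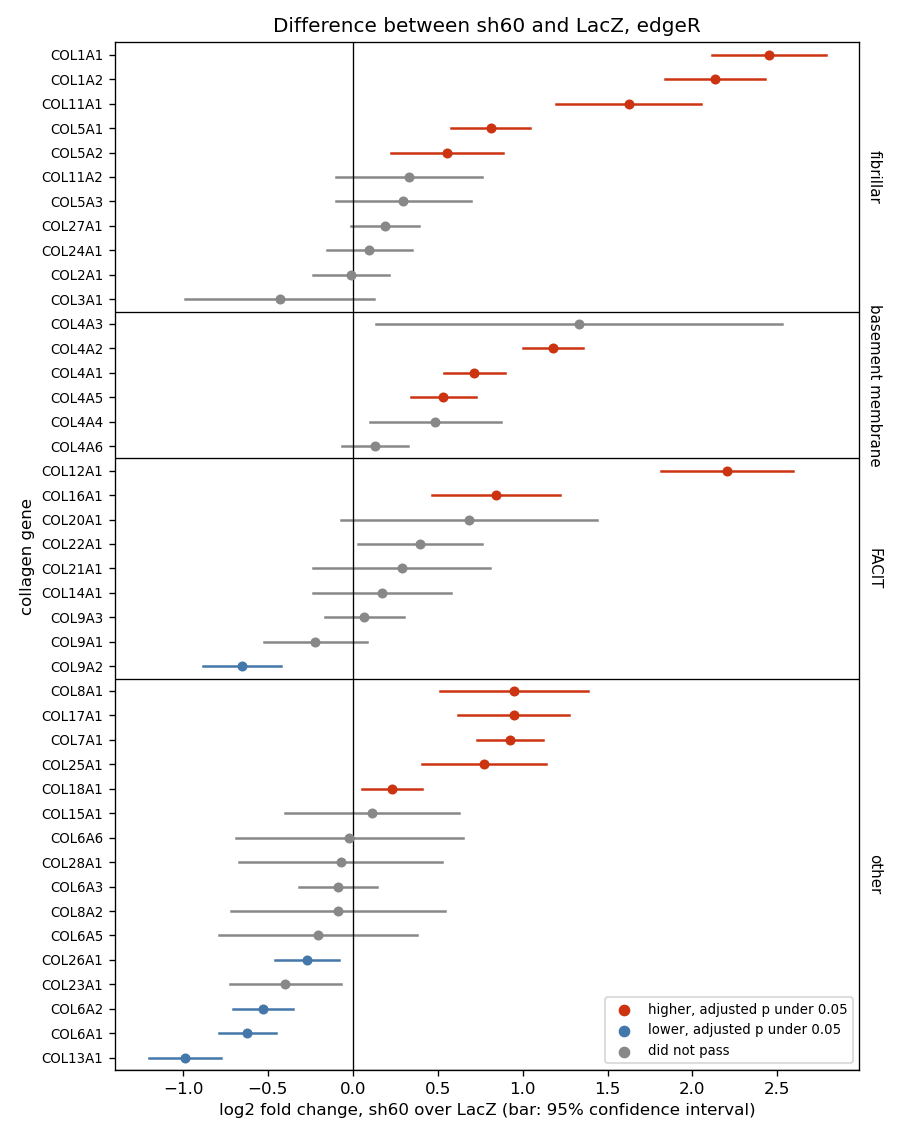
Log2 fold change of sh60 over LacZ for the 42 tested collagen genes with 95% confidence intervals from edgeR, ordered by class and size and colored by call. COL1A1 (2.45), COL12A1 (2.20) and COL1A2 (2.13) lie farthest to the right and COL13A1 (-0.99) farthest to the left, and the gray genes did not pass.

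In the collagen IV genes, whose products build the network of all basement membranes, 3 of 6 were higher in sh60 and 0 were lower (over all genes 15.8% and 13.0%). Their median log2 fold change was 0.62. At an unadjusted p under 0.05 edgeR gave 5 higher and 0 lower, and DESeq2 and limma-voom gave 0 lower. The 6 genes are arranged as 3 head-to-head pairs that are read outwards from a common stretch of DNA. On hg19 the gap between paired genes was 126 bases for COL4A1 and COL4A2 (chromosome 13), 5 bases for COL4A3 and COL4A4 (chromosome 2) and 346 bases for COL4A5 and COL4A6 (chromosome X).

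COL4A1 and COL4A2 are the chains of the collagen IV found in nearly every basement membrane. COL4A1 measured 258.9, 223.6, 400.6 and 392.4 CPM, higher in both sh60 libraries (log2 fold change 0.72, SE 0.085, edgeR adjusted p = 5.98e-06). COL4A2 measured 207.7, 184.3, 436.0 and 451.8 CPM, also with no overlap (log2 fold change 1.18, SE 0.084, edgeR adjusted p = 2.62e-08). Both genes of the pair, which share a start region, were higher in sh60. Per length the ratio of COL4A1 to COL4A2 was 1.05 and 1.02 in LacZ and 0.772 and 0.730 in sh60. Such ratios between chains are given as values, and the difference between 2 genes was not tested.

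The stretch between the pair is shown as the RefSeq promoter window of COL4A2, 250 bases before to 50 after its start, at chr13:110307034-110307333 on the plus strand of GRCh38.p14, with the CCAAT box (CCAAT) and GC box (GGGCGG) in capitals. In this table the starts of both genes lie 126 bases apart, and 226 of the 300 bases also belong to the window of COL4A1.
COL4A2: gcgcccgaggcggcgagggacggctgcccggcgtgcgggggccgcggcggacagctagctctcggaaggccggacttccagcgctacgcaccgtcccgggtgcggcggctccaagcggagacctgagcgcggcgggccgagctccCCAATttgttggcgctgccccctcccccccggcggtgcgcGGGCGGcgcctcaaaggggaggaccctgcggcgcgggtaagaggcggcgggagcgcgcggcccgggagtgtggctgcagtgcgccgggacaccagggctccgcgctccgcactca

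This window has 77.7% G and C and holds 1 CCAAT box and 1 GC box, both between the starts and shared by the pair. A match of letters is a description and no proof of a site.

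In the X-linked pair 1 of the genes passed. COL4A5, a chain of the kidney, eye and ear basement membrane that is mutated in Alport syndrome, measured 60.3, 56.3, 85.2 and 83.5 CPM (log2 fold change 0.53, edgeR adjusted p = 2.35e-04, SE 0.091). Its neighbor COL4A6 measured 58.1, 54.6, 62.8 and 60.8 CPM. Both sh60 libraries of COL4A6 lay above LacZ, and the change did not pass (log2 fold change 0.13, 95% confidence interval -0.06 to 0.33, edgeR adjusted p = 0.321). The ratio of COL4A5 to COL4A6 per length was 1.10 and 1.09 in LacZ and 1.44 and 1.45 in sh60. COL4A6 passed once trends with GC content and length were removed (log2 fold change 0.17, adjusted p = 0.0488).

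The window of COL4A5, at chrX:108439588-108439887 on the plus strand of GRCh38.p14, is given for comparison with that of the autosomal pair. Its capitals mark 2 CCAAT boxes, 1 on each strand (CCAAT and its reverse complement ATTGG).
COL4A5: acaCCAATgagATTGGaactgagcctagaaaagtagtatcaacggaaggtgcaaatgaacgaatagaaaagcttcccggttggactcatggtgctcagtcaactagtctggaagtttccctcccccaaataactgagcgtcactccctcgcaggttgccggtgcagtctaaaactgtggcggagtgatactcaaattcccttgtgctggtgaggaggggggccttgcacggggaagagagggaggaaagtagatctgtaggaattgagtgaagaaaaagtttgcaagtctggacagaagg

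It has 49.3% G and C and no GC box. It shares 121 bases with the first listed window of COL4A6, whose start lies 379 bases away.

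Of the third pair, COL4A4 measured 3.04, 2.69, 4.08 and 4.00 CPM (log2 fold change 0.49, edgeR adjusted p = 0.0534). It passed with library totals (adjusted p = 0.0414), without the count filter (adjusted p = 0.0376) and with GC and length trends removed (adjusted p = 0.0406). COL4A3 had only 8, 3, 9 and 22 counts and did not pass (edgeR adjusted p = 0.0893). The sum over the collagen IV genes was 588, 522, 989 and 993 CPM, a ratio of 1.79.

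**Figure D3:**
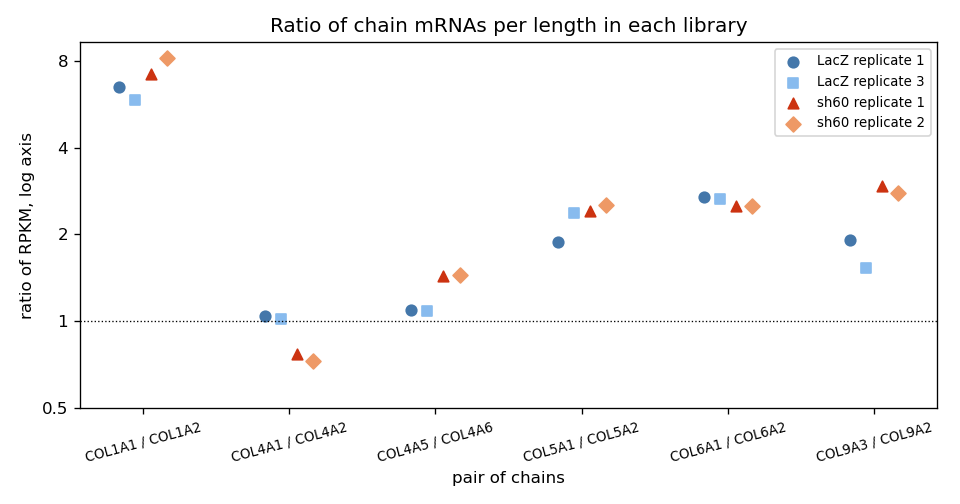
Ratio of mRNA per exon length between chains of 1 collagen type in each of the 4 libraries, on a log axis, with the dotted line at equal levels. The ratio of COL4A1 to COL4A2 is near 1 in LacZ and 0.772 and 0.730 in sh60, while COL4A5 to COL4A6 and COL9A3 to COL9A2 are higher in both sh60 libraries.

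FACIT collagens do not form fibrils by themselves and bridge fibrils to other matrix. Of 9 tested FACIT genes 2 were higher and 1 was lower, with a median of 0.29. These counts were near the shares over all tested genes (15.8% higher and 13.0% lower). COL12A1, which coats collagen I fibrils in tendon and other loaded tissue, lies at chromosome 6, 75794042 to 75915623, on the minus strand (hg19). It measured 26.3, 13.3, 92.1 and 92.7 CPM. The sh60 libraries were nearly equal and 4.60-fold above LacZ (log2 fold change 2.20, SE 0.18, edgeR adjusted p = 1.29e-07). As with COL1A1, COL11A1 and COL5A2, LacZ replicate 1 was the higher of the LacZ libraries.

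The promoter window of COL12A1, the second largest rise after COL1A1, is shown from the minus strand (chr6:75206004-75206303, GRCh38.p14), with its 2 GC boxes in capitals, both as the reverse complement CCGCCC.
COL12A1: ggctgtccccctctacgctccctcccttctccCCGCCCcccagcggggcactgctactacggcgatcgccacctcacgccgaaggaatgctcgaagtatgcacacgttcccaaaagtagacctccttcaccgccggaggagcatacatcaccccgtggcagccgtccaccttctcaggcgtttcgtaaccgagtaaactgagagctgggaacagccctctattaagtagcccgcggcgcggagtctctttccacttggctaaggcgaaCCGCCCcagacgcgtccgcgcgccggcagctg

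COL16A1, a FACIT collagen of skin and smooth muscle, measured 3.51, 2.69, 5.37 and 5.88 CPM and was higher in both sh60 libraries (log2 fold change 0.84, SE 0.18, edgeR adjusted p = 0.00161). COL9A1, COL9A2 and COL9A3 encode the chains of collagen IX, which decorates the collagen II fibrils of cartilage. COL9A2 measured 31.8, 31.5, 18.5 and 21.6 CPM and fell by 0.65 on the log2 scale (SE 0.11, edgeR adjusted p = 2.16e-04), with no overlap. The other 2 chains did not pass. COL9A3 was at 53.5, 42.4, 47.8 and 52.9 CPM (log2 fold change 0.07), and COL9A1 was at 7.41, 7.68, 6.58 and 6.36 CPM (log2 fold change -0.22). The ratio of COL9A3 to COL9A2 per length was accordingly 1.92 and 1.53 in LacZ and 2.94 and 2.79 in sh60.

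The remaining FACIT genes were low. COL22A1, a collagen of tissue junctions such as that of muscle and tendon, measured 4.72, 3.56, 5.34 and 5.66 CPM (log2 fold change 0.40, edgeR adjusted p = 0.0978), and COL14A1, COL20A1 and COL21A1 stayed below 4 CPM in every library. COL22A1 passed as higher with LacZ replicate 1 left out (log2 fold change 0.63, adjusted p = 0.0349) and with GC and length trends removed (adjusted p = 0.0467), and without sh60 replicate 1 COL20A1 did (log2 fold change 1.05, adjusted p = 0.0423). The class summed to 133, 106, 182 and 192 CPM, a ratio of 1.56.

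The other collagens moved in both directions, with 5 higher, 4 lower and 7 not passed of 16 tested (over all genes 15.8% higher and 13.0% lower). The median was -0.08. Their sum was 2135, 1925, 1910 and 2098 CPM. The groups overlapped, with a ratio of 0.987 (exact permutation p = 0.667, two-sided, 2 against 2 libraries). That test cannot give a p below 0.333 and so cannot decide whether the sums differ.

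Collagen VI forms beaded microfilaments around cells, and COL6A1, COL6A2 and COL6A3 are its main chains. COL6A1 (chromosome 21, 47401663 to 47424963, plus strand, hg19) measured 499.2, 461.2, 302.9 and 321.5 CPM, lower in both sh60 libraries (log2 fold change -0.62, SE 0.080, edgeR adjusted p = 1.43e-05). COL6A2, 93069 bases further along the same strand, measured 190.3, 178.1, 123.8 and 131.8 CPM and was also lower, by a log2 fold change of -0.53 (SE 0.084, edgeR adjusted p = 1.20e-04). The ratio of COL6A1 to COL6A2 per length was 2.7 in each LacZ library and 2.51 in each sh60 library. COL6A3, on another chromosome, was at 37.2, 30.6, 31.7 and 32.3 CPM and did not pass (log2 fold change -0.08, 95% confidence interval -0.31 to 0.15, edgeR adjusted p = 0.612). Per length, COL6A1 mRNA exceeded that of COL6A3 by 34.0 and 38.2 times in LacZ and by 24.2 and 25.2 times in sh60. COL6A5 and COL6A6 stayed below 2 CPM and did not pass.

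COL18A1 lies 468028 bases before COL6A1 on the same strand of chromosome 21. It measured 1118, 996, 1165 and 1310 CPM and passed narrowly as higher (log2 fold change 0.23, SE 0.084, edgeR adjusted p = 0.0496). It did not pass in 8 of the 14 other settings, for example with DESeq2 (adjusted p = 0.0635) or without LacZ replicate 3 (log2 fold change 0.15, adjusted p = 0.564). COL15A1, the other collagen of this kind, was at 2.37, 1.43, 2.09 and 2.12 CPM and did not pass.

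COL7A1 makes the anchoring fibrils that hold the epidermis to the dermis. It measured 82.6, 73.6, 140.1 and 156.6 CPM, with no overlap (log2 fold change 0.92, SE 0.093, edgeR adjusted p = 8.90e-07). COL8A1, a short-chain collagen of blood vessel walls and the cornea, measured 2.92, 1.83, 4.49 and 4.86 CPM (log2 fold change 0.95, edgeR adjusted p = 0.00207, SE 0.21). Its partner chain COL8A2 was at 1.33, 0.965, 0.852 and 1.30 CPM and did not pass.

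Transmembrane collagens stay in the cell membrane and can be shed. COL13A1, found at sites of cell adhesion and at the neuromuscular junction, measured 94.0, 81.6, 47.0 and 41.7 CPM. Both sh60 libraries were well below both LacZ libraries (log2 fold change -0.99, SE 0.10, edgeR adjusted p = 1.11e-06), the steepest fall among the collagens. COL17A1, a part of the hemidesmosome, went the other way at 4.87, 4.06, 9.13 and 8.22 CPM (log2 fold change 0.95, SE 0.16, edgeR adjusted p = 1.84e-04). COL25A1, made by neurons, was likewise higher at 3.66, 2.96, 5.99 and 5.44 CPM (log2 fold change 0.77, SE 0.17, edgeR adjusted p = 0.00262). COL23A1 measured 6.27, 6.42, 4.61 and 4.99 CPM, below LacZ in both sh60 libraries without passing (log2 fold change -0.40, edgeR adjusted p = 0.0635). It passed as lower with upper-quartile scaling (adjusted p = 0.0431) and with GC and length trends removed (adjusted p = 0.0478).

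The promoter window of COL13A1, the most lowered collagen gene, lies at chr10:69801656-69801955 on the plus strand of GRCh38.p14. The capitals mark its TATA box letters (TATAAA), which stand near the far end of the window and not close to the start.
COL13A1: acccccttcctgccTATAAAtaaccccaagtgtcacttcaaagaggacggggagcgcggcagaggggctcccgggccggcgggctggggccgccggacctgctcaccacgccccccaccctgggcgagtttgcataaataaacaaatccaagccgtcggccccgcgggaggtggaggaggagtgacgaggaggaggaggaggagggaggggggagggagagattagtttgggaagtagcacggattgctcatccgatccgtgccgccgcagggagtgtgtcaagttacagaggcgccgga

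Outside these kinds, COL26A1 measured 88.8, 83.1, 68.7 and 73.9 CPM and passed as lower with a log2 fold change of -0.27 (SE 0.091, edgeR adjusted p = 0.0322). It was not called with either LacZ library left out (adjusted p = 0.423 without replicate 1 and 0.215 without replicate 3). COL28A1 stayed below 2 CPM and did not pass.

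RefSeq promoter windows were found for 32 of the 44 genes, 1 per gene, with the first taken where several are listed. Each motif was searched on both strands. TATAAA occurred in 5 of the 32 windows (15.6%, against 12.0% of 27305 windows of all genes), CCAAT in 10 (31.2% against 35.7%) and GGGCGG in 18 (56.2% against 44.6%). TGANTCA, the letters bound by AP-1, occurred in 0 (against 7.8%). None of the 4 motifs contains another. The windows of the paired COL4 genes overlap, so a motif in a shared stretch was counted for both genes of a pair. COL1A1, COL1A2 and COL6A1 were among the 12 genes not matched.

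As a share of all collagen mRNA, counted in CPM and not per length, the fibrillar genes held 22.0% and 18.6% in the LacZ libraries and 32.0% and 33.1% in the sh60 libraries. The basement membrane genes, here COL4 alone, held 16.1% and 16.6% in LacZ and 21.8% and 20.2% in sh60. COL18A1, a basement membrane collagen counted among the others, held 30.5% and 31.8% in LacZ and 25.7% and 26.7% in sh60. The COL4 shares are thus not those of all basement membrane collagens. The share of the other collagens went from 58.3% and 61.4% to 42.1% and 42.7%, and that of the FACIT genes from 3.62% and 3.39% to 4.01% and 3.91%. The summed CPM of the other collagens overlapped between the groups (2135, 1925, 1910 and 2098 CPM). Their lower share thus does not mean a lower summed level. Summed over the 44 genes, collagen mRNA was 3660, 3135, 4533 and 4911 CPM. The sh60 libraries were above LacZ by a ratio of 1.39, and COL1A1 alone held 3.86% and 2.71% of the LacZ sums and 12.2% and 13.9% of the sh60 sums.

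**Figure D4:**
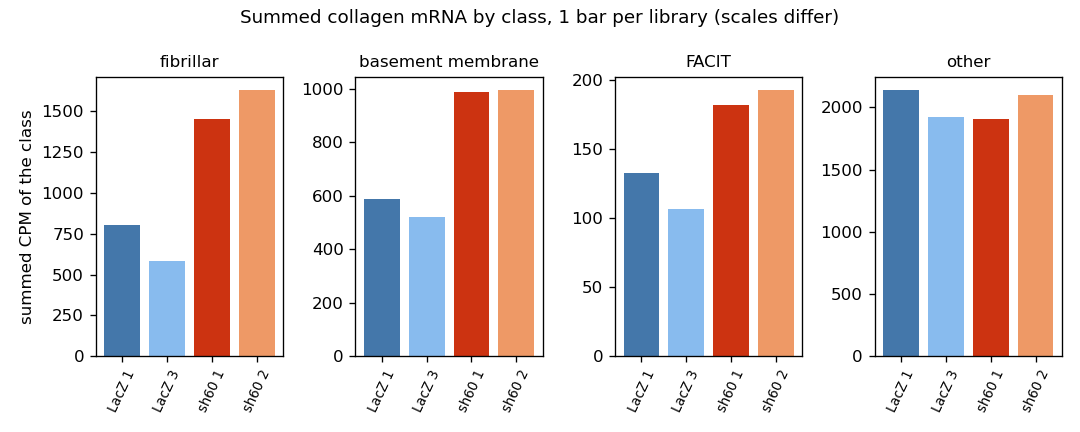
Summed CPM of the fibrillar, basement membrane, FACIT and other collagen genes, 1 bar per library, each panel with its own scale from 0. The fibrillar sums rise from 804 and 582 CPM in LacZ to 1453 and 1628 CPM in sh60, whereas the sums of the other collagens overlap between the groups.

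Genes that make, modify, export, trim, crosslink, cleave or bind collagen were counted in 8 lists. Of the 80 tested genes in these lists, each counted once, 41 were higher in sh60, 11 were lower and 28 did not pass, with a median of 0.35 (over all genes 15.8% were higher and 13.0% lower). These lists were chosen with earlier results of these data known, so the larger share of higher genes is no independent result. This holds for the lists together and for each list alone. The number of higher genes moved with the setting, to 25 against a fold of 1.2 and to 26 without LacZ replicate 3.

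Enzymes and chaperones of the endoplasmic reticulum had 11 of 19 higher and 2 lower, against 15.8% and 13.0% of all genes. The median was 0.35. P4HA2, a catalytic subunit of the prolyl 4-hydroxylase that makes the collagen helix stable at body temperature, measured 6.67, 4.92, 21.6 and 23.3 CPM (log2 fold change 1.94, edgeR adjusted p = 4.12e-08). P3H2, a prolyl 3-hydroxylase with a preference for collagen IV, was also higher with no overlap (22.6, 19.99, 47.1 and 46.8 CPM, log2 fold change 1.14, edgeR adjusted p = 3.07e-07). FKBP14, a prolyl isomerase, and P3H3, a partner of lysyl hydroxylase, passed at log2 fold changes of 0.52 and 0.47. The 2 lower genes were COLGALT1, which puts galactose on hydroxylysine (log2 fold change -0.51, edgeR adjusted p = 3.29e-04), and SERPINH1, the collagen chaperone HSP47 (log2 fold change -0.25, edgeR adjusted p = 0.0244). SERPINH1 was singled out after its values were seen, and it was not called with either LacZ library left out (adjusted p = 0.285 without replicate 1 and 0.228 without replicate 3).

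Large procollagen leaves the endoplasmic reticulum in enlarged COPII carriers. Of 9 tested export genes 6 were higher and 0 lower, against 15.8% and 13.0% of all genes. The median was 0.49 (at an unadjusted p under 0.05 edgeR gave 7 and 0, and DESeq2 gave 6 and 0). CREB3L1, a transcription factor of the reticulum that is known to act on collagen I genes, measured 36.4, 26.5, 67.6 and 80.7 CPM (log2 fold change 1.23, edgeR adjusted p = 1.35e-06). The coat genes SEC23A, SEC31A and SAR1B and the cargo receptor gene MIA3 (TANGO1) were higher in both sh60 libraries, with log2 fold changes of 0.61, 0.51, 0.66 and 0.49.

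Of 7 tested procollagen proteinases and enhancers 3 were higher and 1 was lower (over all genes 15.8% and 13.0%). BMP1, which removes the C-propeptide, measured 35.9, 27.6, 60.0 and 72.0 CPM (log2 fold change 1.05, edgeR adjusted p = 4.59e-06). Of the N-propeptide proteinases, ADAMTS2 and ADAMTS14 were higher (log2 fold changes 0.97 and 0.68), whereas ADAMTS3 was lower at 13.6, 13.4, 6.75 and 5.55 CPM (log2 fold change -1.14, edgeR adjusted p = 7.99e-06).

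Of the 7 crosslinking genes 4 were higher and 1 was lower (over all genes 15.8% and 13.0%). LOX, the lysyl oxidase that starts crosslinks in fibrils, measured 34.8, 15.6, 89.1 and 89.3 CPM (log2 fold change 1.81, edgeR adjusted p = 4.23e-06). As in COL11A1 and COL12A1, the sh60 libraries were alike and LacZ replicate 1 was above LacZ replicate 3, and LOX did not pass with the robust option (adjusted p = 0.0746). Its relatives LOXL2 and LOXL4 and the transglutaminase gene TGM2 were higher by 0.71, 1.06 and 0.79 on the log2 scale. LOXL3 passed narrowly as lower (log2 fold change -0.45, edgeR adjusted p = 0.0466).

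Among 8 tested collagen-cleaving proteases 1 was higher and 3 were lower (over all genes 15.8% and 13.0%), with a median of -0.03. The list summed to 854, 767, 784 and 855 CPM, so the groups overlapped. The higher one was MMP14, a membrane-bound collagenase (log2 fold change 0.32). MMP9, a gelatinase, measured 21.7, 14.9, 8.87 and 10.8 CPM (log2 fold change -0.89, edgeR adjusted p = 3.37e-04). CTSK, the lysosomal protease of osteoclasts, was lower by a log2 fold change of -1.01, and MMP1 was below 1 CPM in every library.

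Of 11 tested collagen receptors 5 were higher and 1 was lower (over all genes 15.8% and 13.0%). CD44, a hyaluronan receptor that also binds collagen, measured 59.6, 45.5, 115 and 111 CPM (log2 fold change 1.10, edgeR adjusted p = 8.64e-07). ITGA11, the integrin chain for fibrillar collagen, was higher by 1.46 on the log2 scale, and ITGA2 and ADGRG1 by 0.49 and 0.55. MRC2, an endocytic receptor for collagen fragments, was lower (log2 fold change -0.43).

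In the partners of fibrils 5 of 11 tested genes were higher and 2 lower (over all genes 15.8% and 13.0%). FN1, the fibronectin onto which collagen I fibrils are laid, measured 994, 706, 1818 and 1871 CPM (log2 fold change 1.12, edgeR adjusted p = 8.90e-07). THBS1, TGFBI and LUM were higher by 1.61, 1.40 and 1.61. The 2 lower genes were the small proteoglycans PRELP (log2 fold change -1.21) and FMOD (log2 fold change -0.91), the latter named after its values were seen. Of 8 basement membrane partners 6 were higher and 1 was lower (over all genes again 15.8% and 13.0%). The laminin chain genes LAMA5, LAMB1 and LAMA1 and the heparan sulfate proteoglycan genes HSPG2 and AGRN were higher by 0.37 to 0.63, and NID1, which links laminin to collagen IV, was lower by a log2 fold change of -0.28. NID1 was also named after its values were seen, and without LacZ replicate 1 it did not pass (adjusted p = 0.487).

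**Figure D5:**
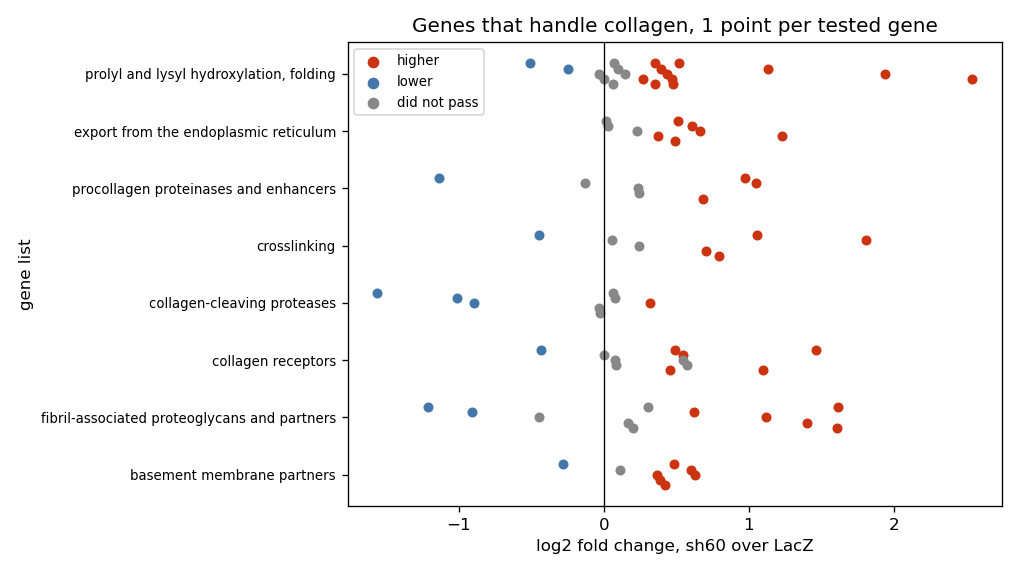
Log2 fold change of sh60 over LacZ for each tested gene of the 8 lists around collagen, 1 point per gene, colored by the edgeR call. Most lists have more red points (higher) than blue ones (lower), and the collagen-cleaving proteases have 3 blue points and 1 red.

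Markers of cell types that make collagen were read from lists of their own. Over all tested genes 15.8% were higher and 13.0% lower. Of 8 tested fibroblast markers 2 were higher (LUM and POSTN) and 2 lower (THY1 and, narrowly, PDGFRA at edgeR adjusted p = 0.0455). The list summed to 375, 352, 306 and 332 CPM, and FAP stayed below 0.2 CPM. The parietal endoderm list, for a cell known for making basement membrane, had 3 higher and 2 lower of 8. Of these SPARC and LAMB1 carried most of the sum (1398, 1072, 1748 and 1827 CPM), and among the transcription factors SOX7 was higher at 3.97, 3.36, 8.05 and 10.2 CPM (log2 fold change 1.31, edgeR adjusted p = 1.32e-05). GATA6 and GATA4 were lower (log2 fold changes -0.81 and -0.78), and SOX17 and FOXA2 stayed below 1.4 CPM. LAMB1 is also on the list of basement membrane partners, and SPARC and LUM are on the list of fibril partners. Cartilage markers had 3 of 5 lower, MATN3, ACAN and COMP, and 0 higher (0 also at an unadjusted p under 0.05 and by DESeq2). Endothelial markers had 3 of 4 lower, KDR, VWF and CDH5, and 0 higher by the same measures. The cartilage marker COMP was below 1 CPM in every library, with 31, 11, 10 and 6 counts (edgeR adjusted p = 0.0380). Muscle markers had 2 of 3 higher, ACTA1 and MYH11, and 1 lower, DES, at 16.6, 21.1, 5.11 and 4.93 CPM (log2 fold change -1.90, edgeR adjusted p = 5.56e-08). Their sums were 19.6, 23.7, 11.04 and 13.4 CPM, with MYOD1 at 0 to 2 counts. Of the blood markers PTPRC was listed at 0 in all 4 libraries and LYZ alone was tested. It passed as higher below 1 CPM (log2 fold change 1.31, edgeR adjusted p = 0.0439) and did not pass without LacZ replicate 1 (adjusted p = 0.332) or without sh60 replicate 1 (adjusted p = 0.306). The part of any of these cell types in the collagen results was not tested.

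Embryonal carcinoma markers summed to 3877, 4054, 4055 and 3861 CPM, so the groups overlapped. Of the 8, SOX2 was higher, NANOG, LIN28B and TDGF1 were lower and 4 did not pass. Without LacZ replicate 3 none of the 3 was called lower (adjusted p = 0.420 for NANOG, 0.0526 for LIN28B and 0.0571 for TDGF1).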

How the data were processed

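The deposited tables hold whole-number counts of reads per gene, not normalized, which the authors made with featureCounts (Subread 2.0.0, strand option 2), per the file headers. Reads had been aligned with STAR 2.7.6a to hg19 (GRCh37), per the submitters' processing notes. Reads that map to several places were left out by default, so genes with near-identical copies are uncertain. Coordinates of genes are on hg19 as the files give them, and promoter windows are RefSeq's on GRCh38.p14. No coordinate was converted.

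Counts of the 4 libraries were fitted with edgeR 4.0.16 in R 4.3.3 (glmQLFit and glmQLFTest, TMM scaling, filterByExpr, group as the only term), which left 16040 genes, and p-values were adjusted over all of them. CPM used TMM-scaled library sizes, and RPKM was CPM per kilobase of exon length in the file. The common biological coefficient of variation was 7.33%. Confidence intervals are at 95%, and floors of 3 counts cover counting error only. Counts of same-group libraries differed beyond counting noise (chi-square divided by its degrees of freedom 5.89 in LacZ and 15.8 in sh60), so none was taken as a repeat. The script was tested on simulated data.

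The collagen genes, their classes and the other lists were chosen with earlier results of these data known. All collagen genes could be named, those called or at 5 CPM or more with values in every library. From each other list up to 5 passing genes with the smallest p could be named. Alternatives were DESeq2 1.42.0 and its size factors, limma-voom (limma 3.58.1), upper-quartile scaling, library totals, the robust option, no filter, a filter of 1 CPM in 2 libraries, glmTreat against a fold of 1.2, removal of GC and length trends, and leaving out each library.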

Additional observations from a re-analysis of the deposited data

How the results depend on the processing

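Over the 14 alternative settings the number of higher collagen genes ran from 13 to 19 and that of lower ones from 4 to 6, and the median log2 fold change of the tested collagen genes from 0.15 to 0.39. Leaving out 1 library gave 13 to 17 higher and 4 to 5 lower. Of the 20 collagen genes that passed, 16 kept their direction and call in all settings, and the exceptions were COL5A2, COL11A1, COL18A1 and COL26A1. Testing against a fold of 1.2 lowered the counts over all genes to 1401 higher and 882 lower, and over the genes around collagen to 25 and 6. With 1 library left out, higher genes ran from 1331 to 2789 and lower genes from 956 to 2697 over all genes, and from 26 to 45 and 6 to 11 over the genes around collagen. A lone library left in a group is assumed to vary like the others. Upper-quartile scaling turned the balance over all genes (2424 higher, 2575 lower). Collagen genes that did not pass could change sign. COL2A1 had log2 fold changes of 0.018 with library totals, 0.0068 with limma-voom and 0.035 with GC and length trends removed, and COL6A6 of 0.0062 with library totals and 0.0013 with DESeq2. With 1 library left out, COL2A1 ran from -0.16 to 0.16, COL3A1 from -0.92 to 0.41, COL9A3 from -0.087 to 0.25, COL6A3 from -0.22 to 0.071, COL6A5 from -0.50 to 0.079, COL6A6 from -0.43 to 0.35, COL8A2 from -0.45 to 0.19, COL15A1 from -0.17 to 0.56 and COL28A1 from -0.29 to 0.15. The cause was not tested. No paired analysis was possible because the groups share only replicate number 1.

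With 2 libraries a group, exact tests of sums cannot pass, and low genes such as COL4A3 are limited by their counts. The labels give no batch, culture or harvest time, and mRNA levels say nothing of secreted protein.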

Other observations

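Rows whose names begin with COL but do not have the form used here for collagen genes were read separately. The antisense genes COL4A2-AS1, COL18A1-AS1 and COL18A1-AS2 had 0 or 1 count in each library, while the counted strand of COL4A2 and COL18A1 was abundant. COLEC12, a scavenger receptor with a collagen-like domain, measured 27.9, 17.0, 26.5 and 25.5 CPM, and COLQ, the collagen tail of acetylcholinesterase, measured 3.04, 2.79, 2.53 and 2.96 CPM. Neither passed the edgeR test (log2 fold changes 0.20 and -0.09).

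The pseudogene of a further collagen VI chain, COL6A4P2, was at 0.784, 0.699, 0.734 and 1.02 CPM and did not pass, and COL6A4P1 had 4 to 8 counts per library and was not tested.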
